A study of Homo sapiens with 16 samples.

Results

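The comparison covers CTCF occupancy in HEK293 cells after 1 h of sorbitol and after vehicle. Its members are 73975 of the 74404 deposited intervals, namely those on chromosomes 1 to 22 and X, without mitochondrial DNA, contigs and the YAP1 gene. HEK293 is an established human embryonic kidney line, and every library came from its eGFP-YAP genotype, which both groups therefore share. The labels give 2 libraries of vehicle-treated cells and 2 of cells given sorbitol at 200 mM, and they do not say whether the libraries of a group came from separate cultures. The column names put vehicle at 0 h and sorbitol at 1 h, so an effect of time cannot be told apart from one of sorbitol. The assay was CUT&Tag: nuclei on concanavalin A beads were bound by a CTCF antibody, which brought a Tn5 transposase to the DNA, and the cut fragments were sequenced. These 4 libraries belong to a set of 16 that also measured RAD21, eGFP-YAP and H3K27ac over the same intervals. None of the 16 is labelled as made with a non-specific antibody.

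CTCF is a zinc-finger protein that binds a long DNA consensus at insulators, promoters and domain borders. It stops the cohesin ring, of which RAD21 is a subunit, and in this way anchors chromatin loops. On the X chromosome it is known to bind large tandem repeats, among them DXZ4, FIRRE, ICCE and X75. Sorbitol draws water out of cells, and hyperosmotic stress is known to compact chromatin and to induce early response genes.

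The sequences below are those that the largest falls and some of the largest rises turn on, each read 5′ to 3′ from the hg38 reference on the strand given. Capitals mark the best match to the CTCF consensus inside the interval. The first 5 lie at repeat loci of chromosome X where CTCF counts fell: the FIRRE windows at chrX:131763765-131763818 and chrX:131747282-131747335, an NBDY intron at chrX:56768472-56768525, the X75 repeat at chrX:76145649-76145702 and DANT2 at chrX:115958287-115958340, all on the plus strand. The sixth, chrX:115732253-115732306 on the plus strand, is from the DXZ4 array, where no interval of high count passed the test with TMM scaling and no GC correction. The last 3 are distal sites: RBM15-AS1 (chr1:110312745-110312798, minus strand) and the flank of FLNA (chrX:154343758-154343811, plus strand) fell, and chr1:609366-609419 on the plus strand rose.
FIRRE first: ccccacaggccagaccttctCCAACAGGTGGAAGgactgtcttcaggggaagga
FIRRE second: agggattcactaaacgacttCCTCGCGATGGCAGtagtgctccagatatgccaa
NBDY: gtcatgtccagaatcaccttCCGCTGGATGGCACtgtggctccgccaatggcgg
X75: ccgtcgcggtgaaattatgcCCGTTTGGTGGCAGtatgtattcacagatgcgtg
DANT2: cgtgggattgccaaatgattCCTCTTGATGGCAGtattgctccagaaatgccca
DXZ4 array: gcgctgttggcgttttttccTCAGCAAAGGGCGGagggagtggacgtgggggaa
RBM15-AS1: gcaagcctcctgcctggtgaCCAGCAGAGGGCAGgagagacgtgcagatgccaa
FLNA flank: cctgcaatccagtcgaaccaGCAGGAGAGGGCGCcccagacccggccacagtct
Chromosome 1 end: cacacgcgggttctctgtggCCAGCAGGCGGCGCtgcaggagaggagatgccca
The RBM15-AS1 window matches the consensus with 0 mismatches, the chromosome 1 window with 1, and the windows of FLNA, NBDY, DANT2, the DXZ4 array and the first FIRRE site with 2. The second FIRRE window and the X75 window have 3. The DXZ4 array window was the same, base for base, in 19 tested intervals. The NBDY window recurred in 3 tested intervals, the X75 window in 2 and the FLNA window in 2, so reads there cannot be placed on one copy.

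Stretches of 2 intervals that rose are shown for their base composition: 100 bases of an ANKRD33B intron (chr5:10639498-10639597, plus strand) and 100 bases of TOR4A coding sequence near its start (chr9:137278924-137279023, plus strand). The first is a short tandem repeat rich in CG steps, and the second is part of a GC-rich promoter interval. The best consensus match has 4 mismatches in the ANKRD33B interval and 2 in the TOR4A interval.
ANKRD33B: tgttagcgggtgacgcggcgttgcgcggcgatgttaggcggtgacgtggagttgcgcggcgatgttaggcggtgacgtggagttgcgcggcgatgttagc
TOR4A: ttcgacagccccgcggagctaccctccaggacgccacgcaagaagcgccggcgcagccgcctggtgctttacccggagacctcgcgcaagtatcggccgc

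The libraries held 4512161, 3325228, 2838517 and 2960202 counts, in the order vehicle 1, vehicle 2, sorbitol 1 and sorbitol 2, the order in which values are given. Mitochondrial DNA took 15.7%, 19.9%, 32.8% and 33.9% of them, and the other intervals left out, those of the YAP1 gene, contigs and chromosome Y, a further 4.19%, 5.60%, 13.5% and 13.3%. The members held 3616235, 2475732, 1523792 and 1565071 counts. Depth and both of these shares moved with treatment, and their part in the results was not tested. Replicates correlated at 0.927 (vehicle) and 0.873 (sorbitol) on the log2 scale of counts scaled for depth, and the p-values measure only the spread between these libraries. Of the 1000 intervals with the highest vehicle CTCF counts, 37.4% held a short core of the CTCF consensus on either strand, against 15.2% for RAD21, 11.8% for eGFP-YAP, 13.3% for H3K27ac and 12.9% of all members.

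A total of 38981 members had enough counts to be tested, and 34994 did not. Of those tested 7484 (19.2%) were higher and 8089 (20.8%) lower after sorbitol at an adjusted p of 0.05 (edgeR quasi-likelihood test, Benjamini-Hochberg over all intervals), 40.0% in all. Values are counts per 1000000 (CPM) of library sizes scaled by TMM, which takes the trimmed mean change of all intervals as no change. Every "higher", "lower", "rose" and "fell" is therefore relative to the other intervals. Scaling to each library's total count moves the median change of all tested intervals from -0.07 to -1.05, and scaling to the weakest 25% of intervals moves it to 0.64. GC content also moved with the change, and changes after a correction for it are given beside the groups.

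The 6 largest falls among strong intervals were all on chromosome X. By the naming rule (the 6 largest rises and 6 largest falls in the top 10% by level, with groups that do not overlap), 2 were in FIRRE, 3 in NBDY and 1 at X75. Separation of the groups was thus required of every strong interval, distal motif interval, promoter, gene body and window named here and below. FIRRE makes a long noncoding RNA from a gene full of repeats that bind CTCF. Its intron interval at chrX:131762783-131764021, which holds the first sequence shown, had 61.0 and 51.3 CPM with vehicle and 3.10 and 1.96 with sorbitol. The log2 fold change was -4.47 ± 0.32 (standard error, as after every ± not marked SD, with an edgeR adjusted p = 1.6e-10). A second FIRRE interval, chrX:131741082-131742175, went from 59.4 and 68.4 CPM to 7.24 and 3.93 (-3.51 ± 0.27). The interval with the second sequence shown, which the rule did not name, had 49.7 and 52.7 CPM with vehicle and 2.07 and 5.40 with sorbitol.

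The fall ran along the gene. Of the 17 FIRRE intervals 14 were tested, and 13 were lower and 0 higher, with the same 2 counts in DESeq2 and at an unadjusted p of 0.05. Their log2 fold changes ran from -4.47 to -0.33 with a median of -2.69. Their summed CPM fell from 622.3 and 634.2 with vehicle to 135.0 and 105.5 with sorbitol. Scaling to the weakest intervals also gave 13 lower, and the total-count scaling gave 14.

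NBDY encodes a small protein of processing bodies, and its introns span the position of ICCE, a tandem repeat that contacts DXZ4 and FIRRE on the inactive X. The NBDY interval at chrX:56778467-56779470 had 142.0 and 163.9 CPM with vehicle and 16.04 and 13.74 with sorbitol. The change was -3.36 ± 0.18 (edgeR, adjusted p = 8.6e-13). The intervals at chrX:56767703-56768624 and chrX:56773070-56774051 changed by -3.35 ± 0.19 and -3.31 ± 0.18. All 3 hold the same NBDY window printed above, so they are copies of one repeat and not 3 separate sites. Of 10 tested NBDY intervals 7 were lower and 0 higher, with a median of -1.87, and 6 were lower when the libraries were scaled to the weakest intervals.

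X75 lies 22843 bp from the start of PBDC1. Its interval at chrX:76149205-76150197 had 77.3 and 78.3 CPM with vehicle and 9.83 and 4.42 with sorbitol, a change of -3.46 ± 0.25 (adjusted p = 2.0e-10), or -4.12 without sorbitol replicate 1. The neighbouring repeat unit at chrX:76144983-76145822, whose sequence is shown above, went from 76.2 and 74.7 CPM to 10.3 and 5.40 (-3.27 ± 0.24). The groups did not overlap at this second unit either, which the rule had not named.

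DXZ4, the largest of these repeats, split into an array and its flank. The 19 tested intervals with over 2000 vehicle 1 counts, spaced 2988 bp apart at the median, had log2 fold changes from -0.16 to 0.12. Of these 0 were called by edgeR, also 0 at an unadjusted p of 0.05, and 0 by DESeq2. One of them, chrX:115731994-115733138, had 1262 and 1585 CPM with vehicle and 1403 and 1356 with sorbitol, so its groups overlapped. Together these 19 took 1.96% and 2.42% of member counts with vehicle and 1.57% and 1.46% with sorbitol. Past the end of the array, on the DANT2 side, 7 of 8 tested intervals were lower, with a median of -1.80. The one with the DANT2 sequence shown, chrX:115957873-115958750, went from 57.6 and 55.3 CPM to 9.31 and 7.36 (-2.76 ± 0.24), with no overlap. The array's place depends on scaling and on GC: after the GC correction all 19 array intervals were lower, with a median of -0.82 against -0.11. With the total-count scaling 19 were also lower, and with scaling to the weakest intervals 19 were higher. Of all 32 tested DANT1 and DANT2 intervals 7 were lower and 0 higher here, and 31 were lower after the GC correction, with a median of -0.83.

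**Figure D1:**
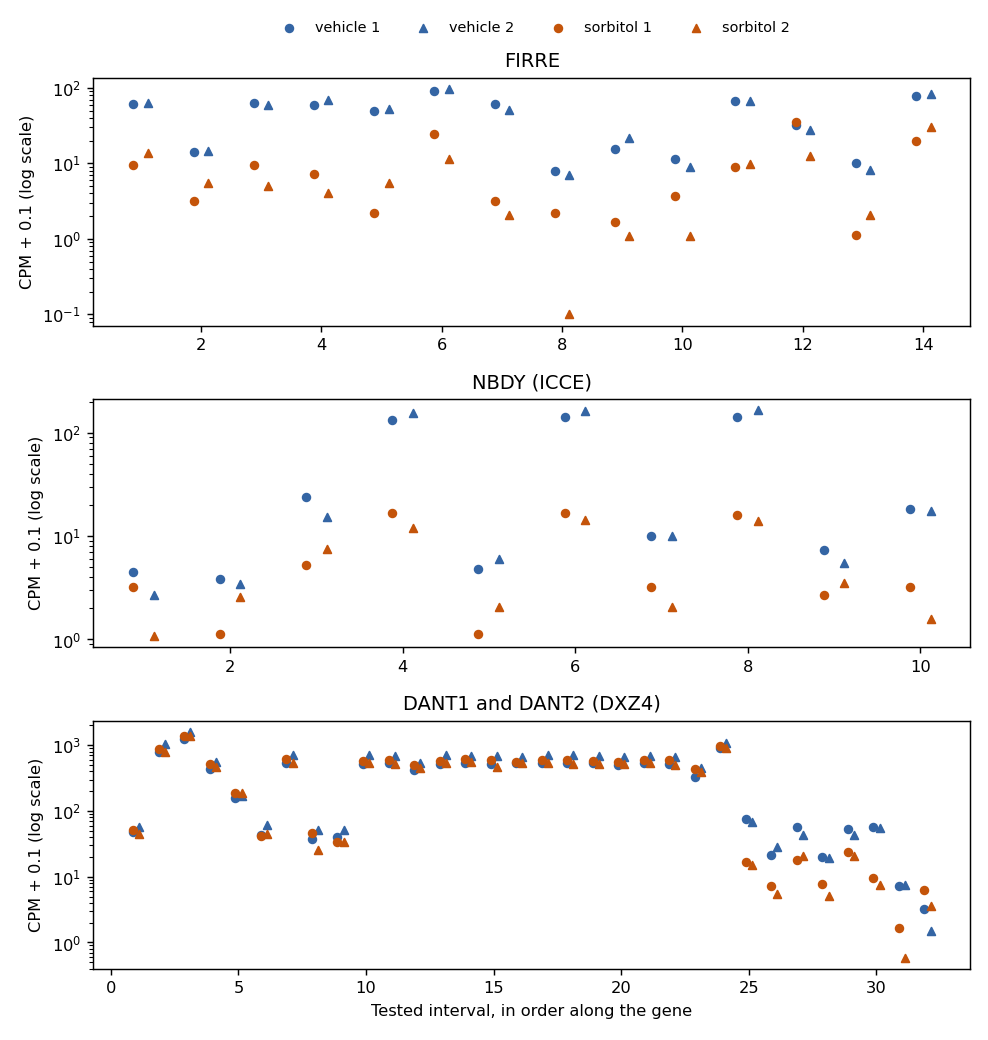
CTCF CPM plus 0.1, on a log axis, in each of the 4 libraries for the tested intervals of FIRRE (14), NBDY (10) and DANT1 with DANT2 (32), in order along the chromosome. The sorbitol points lie far below the vehicle points over most of FIRRE and NBDY, and on top of them over the DXZ4 array, as scaled by TMM and without the GC correction.

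The rest of chromosome X changed much less. With the windows around these loci left out, 151 of 1275 tested X intervals were higher and 295 lower, with a median of -0.28. In fits of counts summed over 1 Mb windows, the window from 56 Mb, which holds NBDY, changed by -2.59 ± 0.09, and that from 131 Mb, which holds FIRRE, by -1.74 ± 0.06. Window sums were scaled on their own, which puts their changes 0.08 above those of the intervals. The X75 window, from 76 Mb, changed by -0.92, and the DXZ4 window, from 115 Mb, by -0.03 (edgeR, adjusted p = 0.83). These loci were picked out after their values had been seen, from the 6 falls that the rule named.

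RAD21 at the same repeats had few counts and a different course. The first FIRRE interval held 22 and 7 RAD21 counts with vehicle and 11 and 4 with sorbitol. The NBDY interval at chrX:56778467-56779470 held 55 and 13 with vehicle and 22 and 22 with sorbitol. These counts are not scaled for depth. The fitted RAD21 changes were 0.10 at the FIRRE interval and 0.50 at the NBDY interval (edgeR, adjusted p = 0.94 and 0.52). In a joint fit of both antibodies the RAD21 change lay above the CTCF change by 4.65 ± 0.75 at the first FIRRE interval (log2; edgeR, adjusted p = 0.00064) and by 3.91 ± 0.43 at that NBDY interval (adjusted p = 4.1e-07). At the first X75 interval RAD21 went down as CTCF did, from 43 and 26 counts to 14 and 3 (-1.09, edgeR adjusted p = 0.27). The difference there was 2.51 ± 0.64 (edgeR, adjusted p = 0.045). By this test 5 of 21 intervals in the FIRRE window, 3 of 15 in the NBDY window and 1 of 5 in the X75 window had RAD21 above CTCF. In the DXZ4 window 3 of 43 passed, 2 with RAD21 above CTCF and 1 below. Over all intervals 338 of 42331 passed in either direction. The sites named here and below were picked by their CTCF change, which this test also uses. Its p-values there are therefore not independent of that choice.

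Distal intervals with the CTCF core motif that were also tested for RAD21 gave 4 named falls. An intergenic interval 1347 bp from the start of RPL10, a gene of the large ribosomal subunit (chrX:154388040-154388608), had 70.6 and 64.8 CPM with vehicle and 13.5 and 14.2 with sorbitol (-2.29 ± 0.20, adjusted p = 7.9e-09). An interval past the end of FLNA, which encodes the actin crosslinker filamin A (chrX:154343486-154344071), went from 70.5 and 64.1 CPM to 11.9 and 19.6 (-2.09 ± 0.21). These 2 hold the same printed window on opposite strands and may share reads. TBCD, a tubulin folding cofactor, fell at chr17:82781472-82782218 from 47.0 and 48.5 CPM to 10.4 and 11.3 (-2.14 ± 0.23). RBM15-AS1 fell at chr1:110312369-110313225 from 51.7 and 54.9 CPM to 11.9 and 18.2 (-1.82 ± 0.22). RAD21 changes there were -1.07 at RPL10, -1.21 at FLNA, -1.20 at TBCD and -1.53 at RBM15-AS1, none of which passed the test.

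The strongest rises were at sites that were almost empty with vehicle, with a GC content of 72.7%, 66.3% and 72.1% at TMEM151B, ANKRD33B and TOR4A and of 57.0% to 59.8% at TUBB4B, against a median of 56.7% of all tested. TMEM151B, a membrane protein gene, had at its coding exon (chr6:44275583-44276288) 1 and 0 vehicle counts against 127 and 114 sorbitol counts. The ratio of scaled counts was 648, with an exact 95% counting interval of 115 to 25685 that covers counting error only. The fitted change was 8.90 ± 0.45 (adjusted p = 3.1e-13), or 8.30 to 10.37 when one vehicle library was left out, and 7.99 after the GC correction. The ANKRD33B repeat shown above, in an intron of a gene with ankyrin repeats (chr5:10638957-10640138), held 3 and 1 vehicle counts against 195 and 206 sorbitol counts, a ratio of 269 (counting interval 104 to 994). Its fitted change was 7.95, and 7.30 after the GC correction.

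A run of rises lay on chromosome 9. TOR4A, a gene of the torsin ATPase family, had at its promoter (chr9:137278282-137279666) 1.86 and 1.42 CPM with vehicle and 323.4 and 315.0 with sorbitol. That is a change of 7.54 ± 0.20 (adjusted p = 3.0e-17), and 6.59 after the GC correction. TUBB4B, a beta-tubulin gene, rose in both of its named coding exon intervals and in the one shared with FAM166A. At chr9:137242304-137242694 it had 0.93 and 0.47 CPM with vehicle and 83.8 and 84.4 with sorbitol (6.75 ± 0.29). At chr9:137243677-137244158 it had 1.71 and 0.24 CPM with vehicle and 120.5 and 127.6 with sorbitol (6.75 ± 0.28, or 8.76 without vehicle replicate 1). Of the 18 tested intervals in the 100 kb that hold TOR4A, 13 were higher and 2 lower, with a median of 2.11. The 2 lower ones were at RNF224 (-0.98) and ENSG00000270259 (-1.55), named here after their values were seen.

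RAD21, eGFP-YAP and H3K27ac were tested at some of these sites. At the first of these TUBB4B intervals RAD21 rose by 4.93 and eGFP-YAP by 4.65 on the log2 scale, while H3K27ac, a mark of active promoters and enhancers, fell by 1.20 (edgeR, adjusted p = 0.0090). The TMEM151B and ANKRD33B intervals were not tested in the fits of the other antibodies alone. At the TOR4A promoter H3K27ac changed by 0.04 (edgeR, adjusted p = 0.97), eGFP-YAP was not tested, and RAD21 rose by 2.30 (adjusted p = 0.045). That RAD21 change was 5.17 ± 0.63 below the CTCF change in the joint fit (adjusted p = 3.4e-06).

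Among distal motif intervals the named rises, beside TUBB4B, were repeated sequence. The chromosome 1 interval in ENSG00000230021 (chr1:609244-610984) had 118.9 and 115.2 CPM with vehicle and 1265 and 1263 with sorbitol (3.43 ± 0.14, GC-corrected 2.36). The consensus window shown for it recurs in 3 tested intervals. Intervals in the ribosomal DNA of chromosome 21 (chr21:8446606-8446994 and chr21:8219336-8219726) rose by 3.04 ± 0.13 and 2.95 ± 0.13 (1.74 and 1.66 GC-corrected), and they too share one window. RAD21 at the chromosome 1 interval changed by -0.45, which was 3.82 ± 0.42 below CTCF (edgeR, adjusted p = 4.1e-07).

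Summed over each gene's promoter intervals, 2741 of 18054 genes (15.2%) were higher and 3036 (16.8%) lower, 32.0% in all. The sums were scaled on their own, which puts their changes 0.46 below those of the intervals. AMN, whose product amnionless takes up vitamin B12, had 1 and 0 vehicle counts against 96 and 100 sorbitol counts (ratio 383, counting interval 67.9 to 15193; fitted change 8.17, or 9.85 without vehicle replicate 1). C1QTNF4, a secreted C1q-like protein, had 2 and 0 vehicle counts against 64 and 58 sorbitol counts (ratio 119, counting interval 32.3 to 995; fitted change 6.69, or 6.03 to 9.17 when one vehicle library was left out). Both passed the count filter through the sorbitol libraries alone, so their low vehicle counts were part of the choice. LINGO3 rose from 3.03 and 1.56 CPM to 134.6 and 153.7 (5.82 ± 0.36).

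The named promoter falls belonged to genes of varied function. HAX1, a mitochondrial regulator of cell death, had 117.7 and 125.9 CPM with vehicle and 19.8 and 10.5 with sorbitol (-3.01 ± 0.29). HAO2, a peroxisomal oxidase, went from 69.2 and 57.1 CPM to 6.17 and 6.99 (-3.25 ± 0.41). ITGA8, an integrin subunit of kidney development, went from 110.1 and 103.2 CPM to 13.6 and 15.1 (-2.89 ± 0.30). The naming rule required that the groups of each not overlap. POU2F3, a transcription factor of tuft cells, changed by -3.13 ± 0.41 (-4.07 without sorbitol replicate 2), and PTPRE, a receptor tyrosine phosphatase, by -3.09 ± 0.34 (-3.72 without sorbitol replicate 1).

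Away from promoters, 1280 of 6331 protein-coding gene bodies (20.2%) were higher and 1079 (17%) lower, 37.3% in all. These sums too were scaled on their own, which puts their changes 0.23 above those of the intervals. EGR1, an immediate early zinc-finger factor, had in its body 11 and 11 vehicle counts against 285 and 339 sorbitol counts (6.45 ± 0.20, edgeR adjusted p = 1.2e-15). SHISA8, an adaptor of glutamate receptors, had 6 and 5 vehicle counts against 150 and 213 sorbitol counts (6.65 ± 0.28). TUBB4B (6.96 ± 0.19, or 8.02 without vehicle replicate 1) and FAM166A (6.83 ± 0.14) share intervals. Besides NBDY (-2.82 ± 0.11), the falls were TOGARAM2, a gene of the ciliary TOG-domain family, at -3.36 ± 0.44, and OSBP2, an oxysterol binding protein, at -2.86 ± 0.40. DCDC2, a ciliary doublecortin-domain gene, changed by -2.73 ± 0.41, and by -4.46 or -1.95 without sorbitol replicate 1 or 2.

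Genes of known stress programs were read from 13 lists. For promoter intervals, the background was 29.1% higher and 10.3% lower among 17527 tested, with a median of 0.42. Immediate early genes, the first transcription factors that cells switch on, had 23 of 33 tested promoter intervals higher and 1 lower, with a median of 1.56 (0.96 after the GC correction). JUND, a subunit of AP-1, had 4.66 and 6.15 CPM with vehicle and 86.9 and 88.8 with sorbitol (4.05 ± 0.21), and FOSB, its partner, 8.69 and 5.44 against 82.3 and 114.3 (3.74 ± 0.22). Both promoters had groups far apart. The 1 that fell was EGR2, from 10.2 and 12.8 CPM to 4.66 and 5.40 (-1.18 ± 0.41, GC-corrected -2.00), and it did not pass without either vehicle library or without sorbitol replicate 1 (edgeR adjusted p = 0.067 to 0.20).

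Of the GADD45, DUSP and KLF genes, which encode growth arrest proteins, phosphatases of MAP kinases and zinc-finger factors, 19 of 28 tested intervals were higher and 1 lower, with a median of 1.27 (0.39 GC-corrected). GADD45B had 6.98 and 7.81 CPM with vehicle and 258.2 and 281.1 with sorbitol (5.20 ± 0.16), and KLF4 3.26 and 4.97 against 108.1 and 126.1 (4.87 ± 0.21). At GADD45B RAD21 rose by 4.27 and eGFP-YAP by 4.75, whereas H3K27ac changed by -2.02. At JUND RAD21 rose by 2.22 and eGFP-YAP by 3.10, and at FOSB by 2.99 and 2.08, while H3K27ac changed by -1.89 and -0.70. In the joint fit RAD21 did not differ from CTCF at GADD45B, JUND or FOSB (edgeR, adjusted p = 0.34, 0.074 and 0.66). The directions were the same at DDIT3, BBC3, HSPA8 and H3C14 below. Neither RAD21 nor eGFP-YAP passed at CHAC1, DNAJA1, MAP3K3, LRRC8A, CRIM1, TEAD4, CDCA5, YY1 or the RPS2 interval below. GADD45G had 2 intervals that rose (2.39 ± 0.59 and 2.51 ± 0.42) and the 1 of the list that fell. The latter changed by -0.57 ± 0.21, by 0.14 when scaled to the weakest intervals, and did not pass without vehicle replicate 1, vehicle replicate 2 or sorbitol replicate 2 (edgeR adjusted p = 0.097 to 0.20).

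Heat shock and chaperone genes, which refold proteins, had 15 of 19 tested intervals higher and 0 lower, with a median of 1.28 (0.67 GC-corrected). DESeq2 called 9 higher and 0 lower, and at an unadjusted p of 0.05 edgeR had 0 lower. HSPA8, the constitutive HSP70, had 19.4 and 13.7 CPM with vehicle and 70.4 and 90.3 with sorbitol (2.25 ± 0.19). DNAJA1, its cochaperone, which shares the interval with APTX, had 4.81 and 6.15 against 28.5 and 26.99 (2.35 ± 0.30). Integrated stress response genes had 9 of 18 higher and 0 lower (7 and 0 in DESeq2, 10 and 0 at an unadjusted p of 0.05), with a median of 0.77 (0.08 GC-corrected). Among them was DDIT3, the factor CHOP, which went from 14.4 and 17.7 CPM to 180.0 and 201.2 (3.58 ± 0.15). CHAC1, which degrades glutathione, rose by 3.24 ± 0.32.

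p53 target genes had 14 of 25 tested intervals higher and 2 lower (median 0.78, GC-corrected 0.32). BBC3, the cell death factor PUMA, had 6.36 and 7.33 CPM with vehicle and 97.3 and 86.4 with sorbitol (3.75 ± 0.20). TIGAR, a regulator of glycolysis, fell from 13.04 and 12.06 CPM to 1.03 and 4.42 (-2.17 ± 0.49, with -1.50 and -3.56 without sorbitol replicates 1 and 2). FAS, the death receptor, had 22 and 15 vehicle counts against 1 and 1 sorbitol counts, a ratio of 0.145 (counting interval 0.017 to 0.563), with a fitted change of -2.71 and of -1.56 after the GC correction (edgeR adjusted p = 0.23). That call did not pass when any one library was left out (edgeR adjusted p = 0.062 to 0.31).

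Genes tied to osmotic stress and to YAP had calls near or under the promoter background. Osmotic stress and cell volume genes had 6 of 22 tested intervals higher and 1 lower, with a median of 0.23 (-0.53 GC-corrected). MAP3K3, the kinase MEKK3 of the osmotic p38 pathway, rose from 21.9 and 15.4 CPM to 59.5 and 67.7 (1.74 ± 0.20, GC-corrected 0.75). LRRC8A, the volume-regulated anion channel, rose by 1.16 ± 0.28 (0.67 GC-corrected, edgeR adjusted p = 0.074), although not without vehicle replicate 1 (edgeR adjusted p = 0.051). WNK1, a chloride-sensing kinase, fell by 1.08 on the log2 scale, and did not pass without vehicle replicate 1, vehicle replicate 2 or sorbitol replicate 2 (edgeR adjusted p = 0.082 to 0.27).

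YAP target genes had 4 of 25 tested intervals higher and 2 lower, with a median of 0.41 (-0.36 GC-corrected). CRIM1, a transmembrane regulator of BMP signalling, rose from 7.76 and 6.39 CPM to 24.3 and 18.2 (1.56 ± 0.32, GC-corrected 0.65, edgeR adjusted p = 0.12). The classic targets CCN2 and CCN1 had 28.2 and 23.4 CPM and 39.3 and 37.8 CPM with vehicle, and 15.5 and 16.7 CPM and 29.5 and 19.1 CPM with sorbitol. Their changes were -0.69 ± 0.25 and -0.67 ± 0.22 (edgeR adjusted p = 0.033 and 0.017). With scaling to the weakest intervals they were 0.02 and 0.04, and after the GC correction -1.34 and -1.17. CCN2 did not pass when any one of the 4 libraries was left out (edgeR adjusted p = 0.053 to 0.28), nor CCN1 without vehicle replicate 1, vehicle replicate 2 or sorbitol replicate 2 (0.052 to 0.22). TEAD4, a DNA-binding partner of YAP, changed by 0.93 ± 0.33, by -0.05 with the total-count scaling and by -0.17 after the GC correction. It did not pass without vehicle replicate 1, vehicle replicate 2 or sorbitol replicate 2 (edgeR adjusted p = 0.090 to 0.20).

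Ribosomal protein genes had 30 of 45 tested promoter intervals higher and 1 lower, with a median of 0.99 (0.82 GC-corrected). RPS2 rose from 2.95 and 4.02 CPM to 22.8 and 33.4 (3.03 ± 0.34), and RPS20, the 1 that fell, went from 14.74 and 17.03 CPM to 3.62 and 4.42 (-1.96 ± 0.39). Genes of CTCF and cohesin had 8 of 28 intervals higher and 2 lower (median 0.65, GC-corrected 0.02). These shares, 28.6% and 7.14%, were near the promoter background of 29.1% and 10.3%. CDCA5, which encodes the cohesin protector sororin, rose by 2.41 ± 0.32, and YY1, a factor of promoter loops, by 1.33 ± 0.23 (0.21 GC-corrected, edgeR adjusted p = 0.52). PDS5A, a cohesin regulator, had 86.6 and 81.4 CPM with vehicle and 29.5 and 38.3 with sorbitol (-1.31 ± 0.17, GC-corrected -2.11). STAG1, a cohesin subunit, had 104.1 and 101.0 against 52.8 and 52.99 (-0.96 ± 0.14, GC-corrected -1.64).

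The remaining lists take in whole genes with 5 kb on each side and hold both promoter and distal intervals. They are set beside all tested intervals, 19.2% higher and 20.8% lower with a median of -0.07. For their promoter intervals, such as that of H3C14, the nearer background is that of promoters, 29.1% and 10.3% with a median of 0.42. The lists were not compared at a matched share of promoters. Replication-dependent histone genes had 25 of 43 intervals higher and 1 lower, with a median of 1.51 (1.60 GC-corrected). The pair H3C14 and H4C14 had 13.3 and 12.1 CPM with vehicle and 165.0 and 169.8 with sorbitol (3.71 ± 0.15). H2AC12 with H2BC12 had 9.00 and 8.04 against 76.6 and 83.9 (3.22 ± 0.19). Histone genes have near-identical copies, so single members are uncertain. H2BC11 had both a higher interval, shared with H2AC11 (2.22 ± 0.23), and the lower one. That fall (-1.73 ± 0.51, GC-corrected -1.04, edgeR adjusted p = 0.14) was -3.73 without sorbitol replicate 1 and did not pass without vehicle replicate 2 (-1.36, edgeR adjusted p = 0.097) or sorbitol replicate 2 (-0.88, 0.11).

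HOX genes, the clustered factors of body patterning, had 24 of 66 intervals higher and 4 lower (median 0.68, GC-corrected 0.22). An interval at HOXA3, HOXA6 and HOXA7 rose from 1.86 and 1.42 CPM to 8.28 and 11.3 (2.53 ± 0.54), and that between HOXD12 and HOXD13 fell from 25.5 and 36.7 CPM to 5.69 and 7.36 (-2.22 ± 0.32). HOXB13 fell by 1.65 on the log2 scale. HOXA10 changed by 2.48 ± 0.66 (3.34 without vehicle replicate 1), and did not pass when any one library was left out (edgeR adjusted p = 0.083 to 0.19).

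Clustered protocadherins, neuronal adhesion genes whose promoters are chosen through CTCF, had 10 tested intervals, 1 higher and 3 lower, with a median of -0.92 (-0.33 GC-corrected). These few intervals give shares of 10.0% and 30.0%, beside 19.2% and 20.8% of all tested. The one higher, at PCDHGC3, changed by 0.90 ± 0.23, by -0.09 with the total-count scaling and by 0.36 after the GC correction (edgeR adjusted p = 0.23), and did not pass without vehicle replicate 2 or sorbitol replicate 2 (edgeR adjusted p = 0.051 and 0.053). PCDHGB3 had 15 and 13 vehicle counts against 1 and 0 sorbitol counts, a ratio of 0.096 (counting interval 0.002 to 0.580). PCDHGA11 changed by -1.49 ± 0.55 (-0.80 GC-corrected, edgeR adjusted p = 0.29). PCDHGB3 did not pass without sorbitol replicate 1 (-6.52, edgeR adjusted p = 0.053) or sorbitol replicate 2 (-2.30, 0.21). PCDHGA11 did not pass without vehicle replicate 1, vehicle replicate 2 or sorbitol replicate 1 (0.12 to 0.23).

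Imprinted genes had 10 of 34 tested intervals higher and 7 lower (median 0.11, GC-corrected -0.06). These shares were 29.4% and 20.6%, beside 19.2% and 20.8% of all tested, so the share lower was at the background. H19, an imprinted noncoding RNA gene known for a CTCF-bound control region, had an interval 325 bp from its start (chr11:2002035-2003143) with 34.6 and 35.5 CPM with vehicle and 3.10 and 1.47 with sorbitol. Its groups were far apart, with a change of -3.93 ± 0.37 (adjusted p = 2.2e-08), or -4.54 without sorbitol replicate 1. CDKN1C, an inhibitor of the cell cycle on the same chromosome arm, rose at chr11:2884302-2884793 from 0.93 and 1.18 CPM to 28.5 and 14.2 (4.32 ± 0.49). A GRB10 intron interval had 23 and 12 vehicle counts against 0 and 0 sorbitol counts, at least 2.17-fold lower against a floor of 3 counts per library. It did not pass without vehicle replicate 2 (edgeR adjusted p = 0.067).

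**Figure D2:**
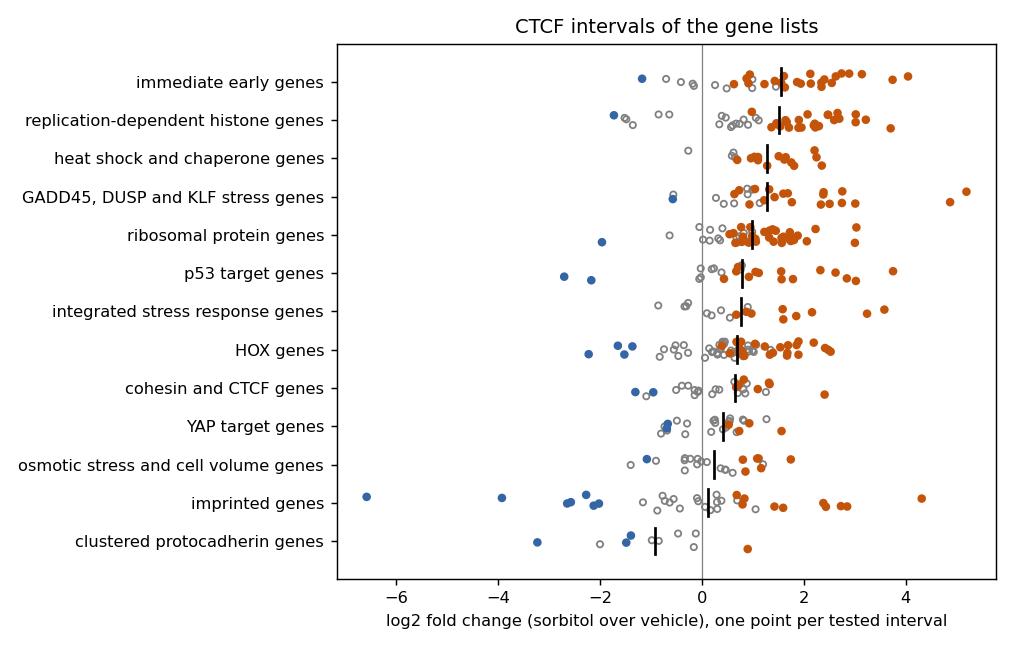
Log2 fold change of every tested interval in the 13 gene lists, with filled points past the adjusted p of 0.05, open points not past it and a bar at each list's median. Immediate early, heat shock and histone genes have medians of 1.28 to 1.56, and the clustered protocadherins one of -0.92.

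The list medians shift with scaling as all intervals do. With the total-count scaling, under which the median of all tested intervals was -1.05, the medians stayed above 0 for immediate early genes (0.57), histone genes (0.53), stress genes of the GADD45, DUSP and KLF families (0.29), heat shock genes (0.29) and ribosomal protein genes (0.01). They turned negative for the HOX (-0.30), cohesin (-0.33), integrated stress (-0.21), p53 (-0.20), YAP target (-0.57), osmotic (-0.75) and imprinted (-0.87) lists. Members and lists were chosen with results of these data known, and their counts are descriptions.

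By position, promoters and distal sites went apart, and gene classes differed within each. Of 14711 tested intervals at protein-coding promoters 30.4% were higher and 8.77% lower, with a median of 0.48. Of 1995 at promoters of long noncoding RNA genes alone, 391 were higher and 372 lower, with a median of 0.01. Distal intervals were higher in 11.1% and lower in 29.2% of cases. Among them the medians were -0.61 in introns (10127 tested), -0.49 within 5 kb past a protein-coding gene end (1134), -0.38 in untranslated exons (1167) and -0.23 in coding exons (698), where 150 were higher and 152 lower. The share of member counts at promoters was 45.02% and 43.79% with vehicle (44.4% ± 0.874, SD, n = 2) and 51.73% and 53.29% with sorbitol (52.5% ± 1.11, SD, n = 2). The groups did not overlap, a difference of 8.10 percentage points (exact two-sided permutation p = 0.33, the smallest that 2 against 2 libraries can give).

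GC content ran in parallel with these classes. In intervals under 40% GC 6.36% were higher and 37.4% lower, with a median of -1.19, and at 70% GC or more 47.5% were higher and 4.12% lower, with a median of 0.87. The order held among distal intervals alone, where those of 70% or more had 53.7% higher and 5.71% lower. After the GC correction the promoter median was -0.02 and the distal median -0.27, and their difference went from 0.97 to 0.25. The difference was also smaller, 0.46, among intervals with a mean of at least 50 counts.

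**Figure D3:**
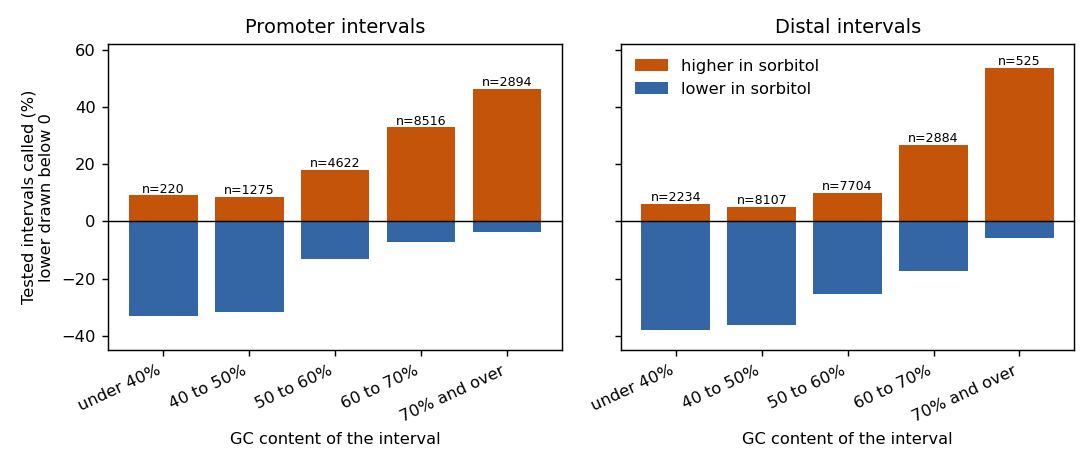
Percent of tested intervals that were higher or lower after sorbitol, by bins of GC content, for promoter intervals and distal intervals. The share higher climbs and the share lower drops with GC content in both panels.

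Distal sites also split by how well they match the CTCF consensus. The level used is the mean of log2(CPM + 0.5) less the mean over all tested intervals. Distal intervals with a perfect match (2639 tested) stood at 0.62 and 0.61 with vehicle and 0.46 and 0.49 with sorbitol. Those with 1 mismatch (6304) stood at 0.28 and 0.30 with vehicle and -0.32 and -0.32 with sorbitol. With 2 mismatches (6020) they went from -0.03 and -0.02 to -0.73 and -0.75. Of these 3 classes the perfect matches differed least between treatments, and replicates were close in each.

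The median changes were -0.15, -0.72 and -0.89 for 0, 1 and 2 mismatches, and -0.24 for 3 or more (6491 tested), a class that stood at -0.75 and -0.71 with vehicle and -0.70 and -0.74 with sorbitol. After the GC correction these 4 medians were 0.18, -0.35, -0.60 and -0.05. The perfect matches thus went from 324 higher and 486 lower to 538 higher and 332 lower, so their direction depends on the correction. The step from 0 to 1 mismatch, 0.57, was 0.53 after the GC correction and 0.32 among intervals with a mean of at least 50 counts. Within 45 to 55% GC the 4 medians were -0.18, -0.75, -1.02 and -0.63. At promoters the medians were 0.11, -0.05, 0.42 and 0.62. The short core of the consensus separated distal intervals less (-0.45 with it, -0.60 without it), and that difference of 0.16 turned to -0.10 in DESeq2 and to -0.35 with no count filter. Of intervals that rose 27.6% held GCGNGGGCG, the binding motif of EGR factors, on either strand, and of those that fell 4.47%, against 14.6% of all tested. The 2 groups also differed in median GC (64.4% against 49.4%) and in promoter share (68.1% against 22.4%). Among distal intervals alone the motif shares were 7.79% and 1.35%, and the motif was not compared at matched GC. The 6 strong intervals named as rises held no copy of it. Intervals that rose were also wider (median 849.5 bp against 505 bp).

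**Figure D4:**
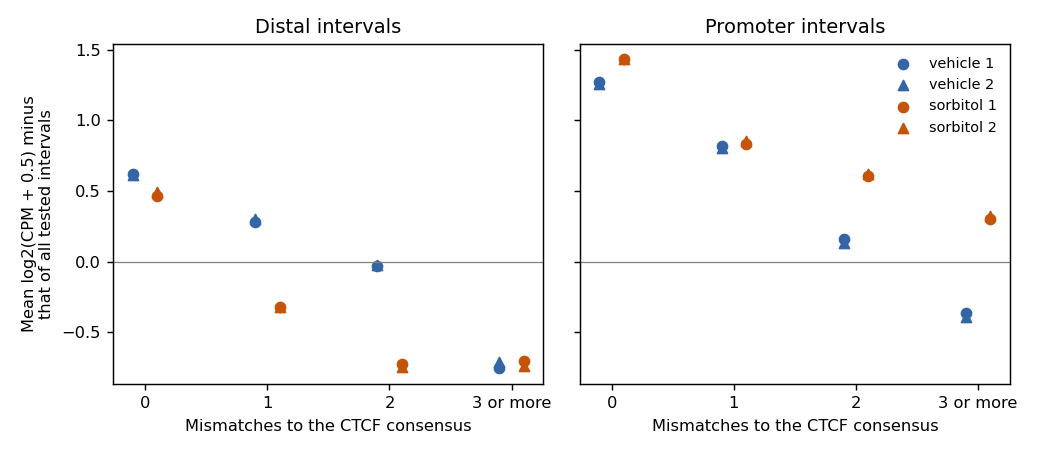
Mean log2(CPM + 0.5) less the mean of all tested intervals in each of the 4 libraries, by mismatches to the CTCF consensus (0, 1, 2, 3 or more), for distal and promoter intervals. Among distal intervals the sorbitol libraries lie well below the vehicle libraries at 1 and 2 mismatches and close to them at 3 or more.

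Chromosomes differed, broadly in the order of their GC content. Chromosome 19, which is rich in genes, had 968 of 2226 tested intervals higher (43.5%) and 207 lower, with a median of 0.66. Chromosomes 16 and 17 had medians of 0.31 each. At the other end chromosome 13 had 54 of 649 higher and 170 lower with a median of -0.48, followed by chromosomes 18 (-0.45) and 4 (-0.40). Over 23 chromosomes the median change and the GC content had a Pearson r of 0.932 and a Spearman rho of 0.915. With the GC-corrected medians r was still 0.853 and rho 0.792. The uncorrected medians also followed the percentage of promoter intervals (r = 0.826, rho = 0.790). These are descriptions over points that share the 4 libraries. The gap of 1.13 between chromosomes 19 and 13 was 0.74 after the GC correction.

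**Figure D5:**
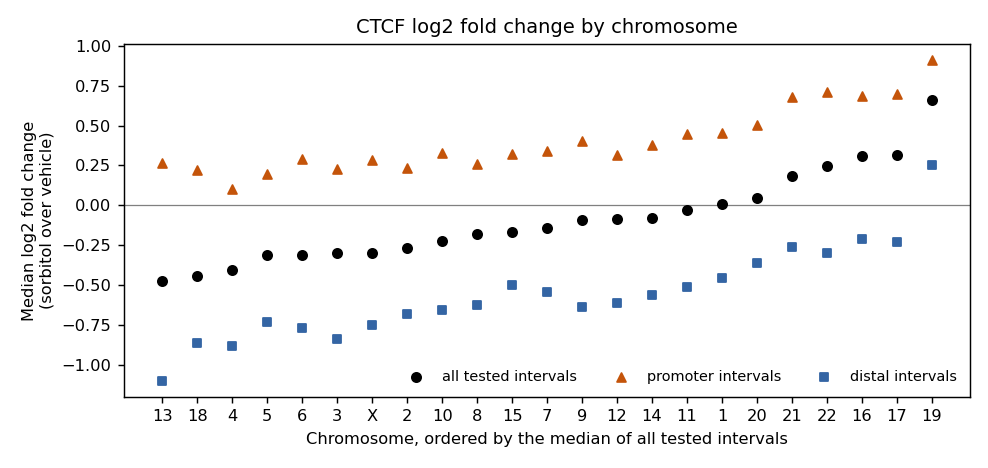
Median log2 fold change of tested intervals on each chromosome, for all, promoter and distal intervals, with chromosomes in the order of the median of all. Chromosome 13 is lowest at -0.48 and chromosome 19 highest at 0.66, and promoters lie above distal intervals.

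Chromosome ends stood apart from the rest. Within 2 Mb of an end 1034 of 2674 tested intervals (38.7%) were higher and 337 (12.6%) lower, with a median of 0.55, against -0.11 elsewhere. After the GC correction that difference of 0.66 was 0.13, and with intervals under a mean of 50 counts left out it was 0.30.

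Of 2683 windows of 1 Mb, 743 (27.7%) were higher and 649 (24.2%) lower, 51.9% in all. The named rises lay beside centromeres and in ribosomal DNA. The chromosome 5 window from 49 Mb had 64.5 and 85.2 CPM with vehicle and 510.0 and 528.1 with sorbitol (2.82 ± 0.10), and 7 of its 9 tested intervals were higher. The chromosome 4 window from 49 Mb had 91.2 and 131.0 against 679.2 and 628.0 (2.59 ± 0.14), with 23 of 26 higher and 0 lower. The chromosome 3 window from 93 Mb rose by 2.42 ± 0.08, although 1 of its 4 tested intervals was higher, and the chromosome 21 window from 8 Mb, which holds ribosomal DNA, by 2.79 ± 0.10, with 61 of 73 higher. Besides the X windows, the named falls were on chromosome 14 from 19 Mb (-1.07 ± 0.06) and chromosome 9 from 64 Mb (-0.97 ± 0.11).

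Intervals far from genes lay mostly near the centromeres of chromosomes 1, 5, 11 and 17. Of 50 tested intervals over 500 kb from any gene, 34 were higher and 0 lower, with a median of 2.67 (28 and 0 in DESeq2, 36 and 0 at an unadjusted p of 0.05). Their GC content was 39.4% at the median, a range in which more intervals were lower than higher, and after the GC correction their median was 3.53. Repeated sequence there cannot be placed with certainty. The same holds for the few intervals with the most counts: 50 intervals over 0.1% of member counts took 8.90% and 12.6% with vehicle and 22.7% and 20.8% with sorbitol. An interval of LINC00486 (chr2:32916142-32916614) alone took 3.59% and 5.65% against 8.79% and 6.88%. With those 50 left out the promoter share was 46.6% and 46.1% against 54.3% and 54.7%.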

How the data were processed

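CUT&Tag counts of CTCF, in 2 vehicle and 2 sorbitol libraries, were taken from a deposited table of whole read counts per interval, not normalized, per the file headers. The submitters' processing notes name Trim Galore, FastQC, BWA 0.7.17, SAMtools, Picard, bedtools 2.31.1, MACS2 2.2.6 and hg38, with no role or order; whether peaks were called on pooled libraries is not given in the sources used here.

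Counts were tested with edgeR 4.0.16 in R 4.3.3 (quasi-likelihood, robust, TMM, filterByExpr with a count minimum of 10, adjusted p of 0.05) over the whole table, and only members were printed. Sums over promoters (within 1 kb of a GENCODE 44 start), gene bodies and 1 Mb windows were fitted likewise. The GC correction was a lowess fit with span 0.3 in each library. The CTCF consensus was searched on both strands. Alternatives were DESeq2 1.42.0, other scalings, filters and annotation distances, a replicate block, and leaving out each library. RAD21 was compared by an interaction term, chosen after seeing the data. On simulated counts the interval test recovered 18.5% of 200 intervals changed 2-fold among 35405.

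Named genes were the largest changes each way past the threshold: 6 strong intervals (top 10% by CPM), 4 distal motif intervals, 5 promoters, 4 gene bodies and 4 windows (of at least 5 intervals), with groups that do not overlap, and the largest rise and fall of each list. One promoter that the rule names is not reported here. Members and lists were chosen with earlier results of these data known.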

Additional observations from a re-analysis of the deposited data

Results flagged for a closer look

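CTCF and RAD21 differed in their change with sorbitol at 338 of 42331 intervals by the interaction test, 284 with RAD21 below CTCF and 54 with RAD21 above it. With the total-count scaling the split was 66 and 64. The 6 X-linked falls of FIRRE, NBDY and X75 picked by the naming rule were among those with RAD21 above CTCF, and the TOR4A promoter was among those below. These sites were picked for the size of their CTCF change, which is part of this comparison. Their place on either side is therefore not separate evidence of a difference. RAD21 counts at FIRRE, NBDY and X75 were few, and those at the DXZ4 array were not.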

How the results depend on the processing

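Called intervals numbered 15573. They were 5824 with a mean of at least 50 counts (fewer tested), 12046 after GC correction, 13616 with a replicate block, 10033 with a replicate block and GC correction, and 9211 to 14571 when one library was left out (9211 without vehicle replicate 1, 9402 without vehicle replicate 2). Gene bodies numbered 2359, and were 4620 with the total-count scaling, 1366 with a mean of at least 50 counts, 2208 with the replicate block and 1357 to 2227 when one library was left out (1357 and 1396 without vehicle replicates 1 and 2). Windows numbered 1392, and were 2523 with the total-count scaling, 2130 with scaling to member counts, 2303 at 0.5 Mb, 876 at 2 Mb, 1316 with the block and 1050 to 1180 when one library was left out. Promoters numbered 5777 and stayed within 1.5 times that count under every alternative run. The promoter share difference was 7.32 to 8.88 points when one library was left out. The antibody interaction gave 338 intervals, 130 with the total-count scaling, 524 with no count filter and 264 with the replicate block. The cause of these moves was not tested. The replicate numbers did not pair the libraries (correlation of deviations -0.0086), and a block on them is given for completeness.

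Scaling set the balance of higher and lower calls. Intervals were 7484 higher and 8089 lower, against 1972 and 20971 with the total-count scaling, 4099 and 13139 with member counts, and 15627 and 3278 with the weakest 25%. Promoters (2741 and 3036) were 881 and 6082 with the total count and 3594 and 2421 with the weakest 25%. Gene bodies (1280 and 1079) were 258 and 4362, 500 and 2884 (member counts), and 1639 and 726. Windows (743 and 649) were 49 and 2474, 199 and 1931, and 1196 and 251, and 632 and 340 in DESeq2. Among named features and differences between classes, those that turned sign were GADD45G (0.14), CCN2 (0.022) and CCN1 (0.042) with the weakest 25%, PCDHGC3 (-0.087) and TEAD4 (-0.049) with the total count, TEAD4 (-0.17) after GC correction and (-0.18) with the replicate block and GC correction, and the distal difference by the short consensus core in DESeq2 (-0.10) and with no count filter (-0.35). Medians of whole classes turned sign too. The promoter median went from 0.42 to -0.56 with the total count and to -0.02 after GC correction. The distal median went from -0.56 to 0.15 with the weakest 25%, and that of distal perfect matches from -0.15 to 0.18 after GC correction. Sites with fewer than about 10 counts in a library limit single calls.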
